A study of Mus musculus with 32 samples.

Results

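The laminin, nidogen and perlecan genes of the basement membrane were followed through differentiation of mouse embryonic stem cells (ESCs) exposed to bisphenols. The set held 10 genes of the 20612 listed in any library, matched by symbol to their Entrez identifiers: the laminin alpha chain genes Lama1, Lama2, Lama4 and Lama5, the beta chain genes Lamb1 and Lamb2, the gamma chain gene Lamc1, the nidogen genes Nid1 and Nid2, and Hspg2, which encodes the heparan sulfate proteoglycan perlecan. All 10 were expressed highly enough to be tested among 15632 genes. Lama2 was listed in 27 of the 32 libraries and the other genes in all of them.

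The basement membrane is a thin sheet of matrix that underlies epithelia and surrounds muscle fibres, fat cells, nerve sheaths and vessels. A laminin is a trimer of an alpha, a beta and a gamma chain. The trimers polymerise on the cell surface, where the alpha chain binds integrins and dystroglycan. Nidogens bind the gamma chain encoded by Lamc1 and link the laminin network to collagen IV and perlecan. In the early mouse embryo and in embryoid bodies, laminin containing the Lama1 chain is deposited by primitive endoderm and its derivatives beneath the epiblast. The Lama5 chain is the most widespread alpha chain of epithelia, the Lama4 chain is typical of vessels and mesenchyme, and the Lama2 chain belongs to muscle and peripheral nerve.

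RNA was sequenced from J1 cells, an ESC line of strain 129S4/SvJae, that had received 1 of 3 bisphenols (A, F or S, written BPA, BPF and BPS) at 100 nM, or the solvent DMSO. Samples came from ESCs at day 0, from embryoid bodies (EBs, clumps in suspension whose cells differentiate) at days 4, 6, 9, 12 and 20 (EB4, EB6, EB9, EB12 and EB20), from EBs at day 8 of the neural protocol, after retinoic acid (RA8), and from monolayer neural progenitor cultures at day 10 (NPC10). EB6 to EB20 are called the global branch below, and RA8 and NPC10 the neural branch. Each of the 8 stages had 1 library for each of the 4 treatments. J1 is a single line, the labels name no separate cultures, and p-values therefore describe only the spread between libraries that differ in stage or compound. Levels are FPKM (fragments scaled by transcript length and sequencing depth), which can be compared between genes because they are per length, and a mean ± SD is over the 4 libraries of a stage. Log2 differences are edgeR estimates ± SE, and adjusted p is from edgeR's quasi-likelihood test with Benjamini-Hochberg adjustment over all genes tested. A gene was called at an adjusted p under 0.05, and between stages also at an absolute log2 difference of 1 or more.

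Total expected counts per library were 9574833 to 11070149. Summed FPKM of 6 pluripotency markers, among them Pou5f1 and Nanog, was 11.3 to 15.3 in NPC10 cultures and 2352 to 2479 in ESCs, and that of 6 neuronal markers was 1549 to 1621 in NPC10 cultures and 35.3 to 39.7 in ESCs. The DMSO library had the lowest mean correlation of log2 CPM with the other libraries of its stage at every stage but ESC. That correlation was 0.976, 0.959 and 0.961 for the DMSO libraries of EB9, EB12 and EB20, 0.983 for EB6 (0.986 to 0.987 for its bisphenol libraries) and 0.984 for NPC10 (0.986 to 0.987 for its bisphenol libraries). Stage results are therefore also given without the DMSO libraries where a call changed, and every comparison of bisphenols with DMSO within a stage rests on 1 DMSO library. In bulk RNA, fewer cells of a type and less RNA per cell cannot be told apart.

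The sequences immediately before the annotated start were at hand for 6 of the 10 genes, Lama2, Lama5, Lamb1, Lamb2, Nid1 and Hspg2 (RefSeq, build GRCm38.p6). Those of 5 genes are shown because Lama5 and Hspg2 followed each other closely over the libraries, Lamb1 and Nid1 were both called at EB12 and NPC10 between treatments, and Lama2 responded most in log2 terms at EB12 while being the gene of lowest level. Each is 250 bases, written 5′ to 3′ on the strand of the gene. The table's start is that of 1 transcript, and except in Nid1 it lies inside the outermost annotated bounds of the gene. Nearly the whole Lama2 window lies within those bounds, which end at 27617191. Capitals mark a GC box (GGGCGG, or CCGCCC on the other strand) or a CCAAT box (CCAAT, or ATTGG on the other strand). The regions are chr2:180225860-180226109 on the minus strand for Lama5, chr4:137468553-137468802 on the plus strand for Hspg2, chr12:31265043-31265292 on the plus strand for Lamb1, chr13:13437352-13437601 on the plus strand for Nid1, and chr10:27616943-27617192 on the minus strand for Lama2.
Lama5: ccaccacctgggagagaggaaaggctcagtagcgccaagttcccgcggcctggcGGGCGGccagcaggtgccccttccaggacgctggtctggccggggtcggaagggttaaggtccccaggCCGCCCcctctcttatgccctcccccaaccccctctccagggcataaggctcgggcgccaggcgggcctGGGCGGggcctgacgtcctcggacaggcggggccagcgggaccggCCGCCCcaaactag
Hspg2: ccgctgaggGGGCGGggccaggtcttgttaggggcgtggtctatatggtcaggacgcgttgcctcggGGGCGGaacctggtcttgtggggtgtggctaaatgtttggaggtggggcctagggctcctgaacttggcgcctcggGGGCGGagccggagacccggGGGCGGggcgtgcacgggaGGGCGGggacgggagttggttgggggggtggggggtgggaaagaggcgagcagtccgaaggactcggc
Lamb1: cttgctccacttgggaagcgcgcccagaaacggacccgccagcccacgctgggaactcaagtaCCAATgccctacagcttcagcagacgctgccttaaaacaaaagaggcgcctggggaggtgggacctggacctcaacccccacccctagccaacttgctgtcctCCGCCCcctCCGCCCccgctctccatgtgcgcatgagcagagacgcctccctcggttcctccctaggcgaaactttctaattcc
Nid1: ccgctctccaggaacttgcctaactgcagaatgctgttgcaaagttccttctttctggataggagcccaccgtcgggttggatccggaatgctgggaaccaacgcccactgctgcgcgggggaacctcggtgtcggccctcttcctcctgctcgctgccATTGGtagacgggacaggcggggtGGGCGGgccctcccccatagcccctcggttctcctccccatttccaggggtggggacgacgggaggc
Lama2: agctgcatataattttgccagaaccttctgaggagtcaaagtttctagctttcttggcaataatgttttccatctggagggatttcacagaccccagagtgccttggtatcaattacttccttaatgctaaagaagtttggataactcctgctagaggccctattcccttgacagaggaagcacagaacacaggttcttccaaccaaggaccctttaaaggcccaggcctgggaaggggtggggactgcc

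Hspg2 held 5 GC boxes, Lama5 held 4, Lamb1 held 2 and Nid1 held 1, whereas Lama2 and Lamb2 held none. A GC box was present in 32.9% of the 27025 promoters of the same length in the table. Lamb1 and Nid1 each held 1 CCAAT box, which 34.5% of promoters held. The share of G and C was 72.4% for Lama5, 70.0% for Hspg2, 64.4% for Nid1, 62.0% for Lamb1, 47.2% for Lama2 and 43.6% for Lamb2, beside a median of 52.0% over all promoters. The Lama2 stretch held no CpG, against 20 in Hspg2 and 19 in Lama5. Other motifs were searched on both strands and were not in these windows: a TATA box (TATAAA), which 13% of all promoters held, the core of a retinoid receptor site (AGGTCA), which 13.8% held, a GATA site (TGATAA), which 8.16% held, and an E-box (CAGCTG), which 12.8% held.

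Lama1 encodes the alpha chain of the earliest embryonic laminin (Entrez 16772, GRCm38.p6 chromosome 17, 67697127 to 67822645). Its mean was 12.1 ± 1.61 FPKM in ESCs, 1.07 ± 0.30 at EB4, 3.0 ± 0.81 at EB6, 7.63 ± 1.34 at EB9, 9.70 ± 2.32 at EB12 and 72.4 ± 20.8 at EB20. In the neural branch it was 9.02 ± 0.94 at RA8 and 6.44 ± 0.94 at NPC10. The EB20 libraries lay above all others, the EB6 and then the EB4 libraries lay below all others, and the ranges of ESCs, EB12, RA8, EB9 and NPC10 overlapped from each to the next.

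Lama5 (Entrez 16776, chromosome 2, 180176373 to 180225904) ran a different course. Its mean was 7.99 ± 0.94 FPKM in ESCs, 18.2 ± 5.31 at EB4, 13.9 ± 0.95 at EB6, 9.57 ± 1.10 at EB9, 3.54 ± 1.38 at EB12 and 5.71 ± 1.62 at EB20, and it was 2.92 ± 0.64 at RA8 and 0.495 ± 0.191 at NPC10. The NPC10 libraries were all below those of every other stage. The EB4 and EB6 libraries overlapped, and at EB4 the DMSO library had 25.9 FPKM against 13.8 to 16.9 in the bisphenol libraries. Over the 32 libraries the Pearson correlation of log2(FPKM + 1) between Lama5 and Lama1 was -0.305, a description of points that share stages.

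Lama4 (Entrez 16775, chromosome 10, 38965515 to 39110188) and Lama2 (Entrez 16773, chromosome 10, 26981285 to 27617191) were the alpha chains at low level in ESCs and early EBs. Lama4 averaged 0.64 ± 0.07 FPKM in ESCs, 0.23 ± 0.05 at EB4, 0.65 ± 0.27 at EB6, 3.10 ± 2.11 at EB9, 3.24 ± 1.70 at EB12 and 7.54 ± 4.47 at EB20, with 0.68 ± 0.07 at RA8 and 3.33 ± 1.09 at NPC10. Lama2 reached 1.15 ± 0.71 FPKM at EB20, 0.48 ± 0.36 at EB12 and 0.42 ± 0.09 at NPC10, and its 4 libraries together held 3 reads in ESCs and 2 at EB4. The correlation between Lama2 and Lama4 over the 32 libraries was 0.927, the highest of the 45 pairs of the set. The large SDs of both genes from EB9 to EB20 come with the low DMSO libraries described further on.

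Lamb1 (Entrez 16777, chromosome 12, 31265146 to 31329644) was the main beta chain gene outside ESCs by stage mean. It averaged 9.83 ± 0.80 FPKM in ESCs, 36.8 ± 6.07 at EB4, 36.8 ± 0.91 at EB6, 42.2 ± 10.3 at EB9, 28.0 ± 13.5 at EB12 and 133 ± 28.4 at EB20, with 14.8 ± 2.34 at RA8 and 17.6 ± 7.64 at NPC10. Lamb2 (Entrez 16779, chromosome 9, 108479847 to 108490530), the beta chain of the neuromuscular junction and kidney glomerulus, was near Lamb1 in ESCs, at 9.76 ± 0.55. Its means were lower than those of Lamb1 afterwards, at 3.22 ± 0.33 at EB4, 12.5 ± 0.71 at EB9, 13.5 ± 0.80 at EB12, 24.5 ± 4.55 at EB20 and 3.46 ± 0.44 at NPC10. In the DMSO library of EB12, however, Lamb2 was the higher, at 12.4 FPKM against 9.83 for Lamb1. The ESC libraries of Lamb1 were below all others except the DMSO library of EB12, whereas those of Lamb2 were above all libraries of EB4, EB6, RA8 and NPC10.

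Lamc1 (Entrez 226519, chromosome 1, 153218922 to 153332786) carries the gamma chain shared by most laminins. It averaged 79.0 ± 5.52 FPKM in ESCs, 34.5 ± 5.39 at EB4, 39.8 ± 1.54 at EB6, 47.9 ± 3.79 at EB9, 31.4 ± 9.90 at EB12 and 129 ± 26.8 at EB20, with 19.0 ± 1.87 at RA8 and 14.2 ± 5.22 at NPC10. EB20, ESC and EB9, in that order, lay above all other stages without overlap, and the other neighbours in the order overlapped.

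Nid1 (Entrez 18073, chromosome 13, 13437602 to 13512275) was, by stage mean, high at both ends of the global course and low between them. It averaged 75.9 ± 4.93 FPKM in ESCs, 2.37 ± 0.58 at EB4, 6.97 ± 0.66 at EB6, 15.2 ± 8.81 at EB9, 19.3 ± 11.3 at EB12 and 65.1 ± 24.7 at EB20, with 2.63 ± 0.28 at RA8 and 12.3 ± 4.52 at NPC10. Nid2 (Entrez 18074, chromosome 14, 19751257 to 19811787), whose product shares the laminin binding of nidogen 1, averaged 129 ± 6.62 in ESCs, 60.2 ± 4.89 at EB4, 38.8 ± 2.61 at EB6, 31.1 ± 8.11 at EB9, 19.4 ± 8.16 at EB12, 44.0 ± 13.1 at EB20, 9.77 ± 1.16 at RA8 and 10.9 ± 2.44 at NPC10. The ESC libraries were the highest for Nid2, and for Nid1 they overlapped with the bisphenol libraries of EB20 only. The DMSO libraries of Nid1 ran differently from its means. They had 72.4 FPKM in ESCs, 3.17 at EB4, 7.94 at EB6, 4.81 at EB9, 3.0 at EB12 and 28.3 at EB20.

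Hspg2 (Entrez 15530, chromosome 4, 137468751 to 137570630) had a flatter course. It averaged 21.1 ± 3.18 FPKM in ESCs, 20.5 ± 9.02 at EB4, 12.5 ± 1.42 at EB6, 13.1 ± 1.56 at EB9, 9.31 ± 2.20 at EB12, 13.3 ± 4.42 at EB20, 8.08 ± 1.52 at RA8 and 4.06 ± 2.04 at NPC10. From ESCs down to NPC10, every stage overlapped with the next in the order of means. At EB4, however, the bisphenol libraries had 14.3, 16.8 and 16.9 FPKM, below every ESC library, and the DMSO library had 33.9. Its correlation with Lama5 was 0.866 and with Nid2 0.858 over the 32 libraries, the highest of the set after that of Lama2 with Lama4.

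**Figure D1:**
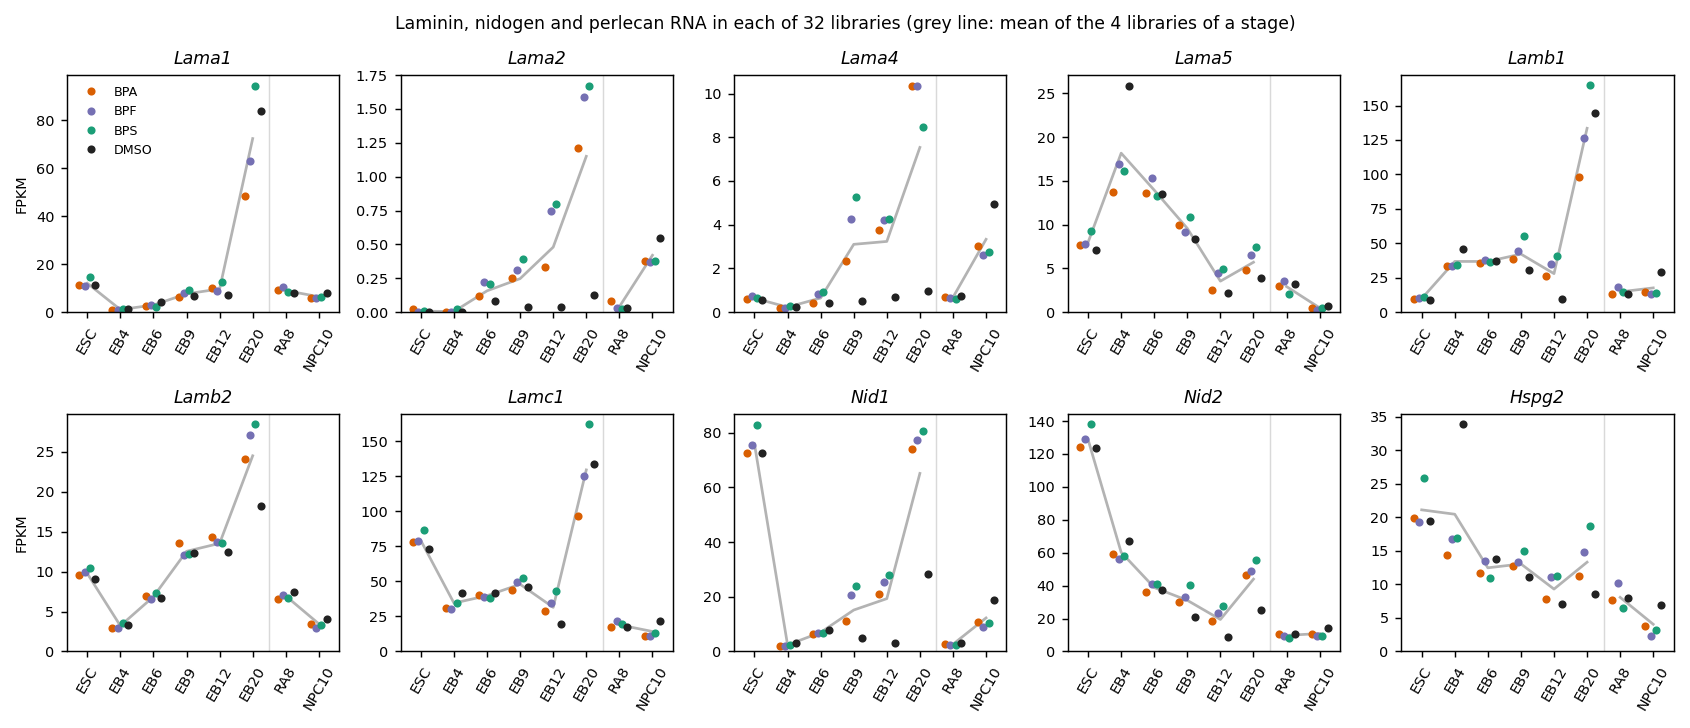
FPKM (vertical axis, from 0) of each gene in each library by stage (horizontal axis, global branch left of the thin line), coloured by treatment, with a grey line through the mean of the 4 libraries. Lama1, Lamb1 and Lamc1 peak at EB20, and Nid1 is high in ESCs and at EB20. The stage mean of Lama5 is highest at EB4, where its libraries overlap with those of EB6. The DMSO points of Lama2, Lama4 and Nid1 lie under the bisphenol points from EB9 to EB20.

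Summed over chains, with Lama3 and Lamb3 added, the alpha and beta classes were small beside Lamc1 in ESCs. The alpha sum was 21.2 ± 2.5 FPKM and the beta sum 20.2 ± 1.32 in ESCs, where Lamc1 averaged 79.0. The beta sum divided by the Lamc1 level was 0.255 ± 0.008 in ESCs, 1.24 ± 0.06 at EB4, 1.13 ± 0.065 at EB6, 1.24 ± 0.03 at EB20 and 1.5 ± 0.14 at NPC10, and no library of the later stages was as low as any ESC library. At EB20 the sums were 87.2 ± 19.6 FPKM for alpha and 160 ± 29.3 for beta chains.

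Within the alpha class, Lama1 made up 56.9 ± 1.70% in ESCs, 5.38% at EB4, 16.8% at EB6, 37.3% at EB9, 58.7% at EB12 and 82.3% at EB20. Lama5 made up 37.7% in ESCs, 91.0% at EB4, 78.4% at EB6, 47.2% at EB9, 20.8% at EB12 and 6.63% at EB20. Lama4 contributed 30.5% at NPC10 and at most 17.8% on average elsewhere. Nid1 was 37.1% of the nidogen sum in ESCs, 3.75% at EB4 and 58.8% at EB20. These shares are descriptions of RNA, and trimers of protein were not measured.

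**Figure D2:**
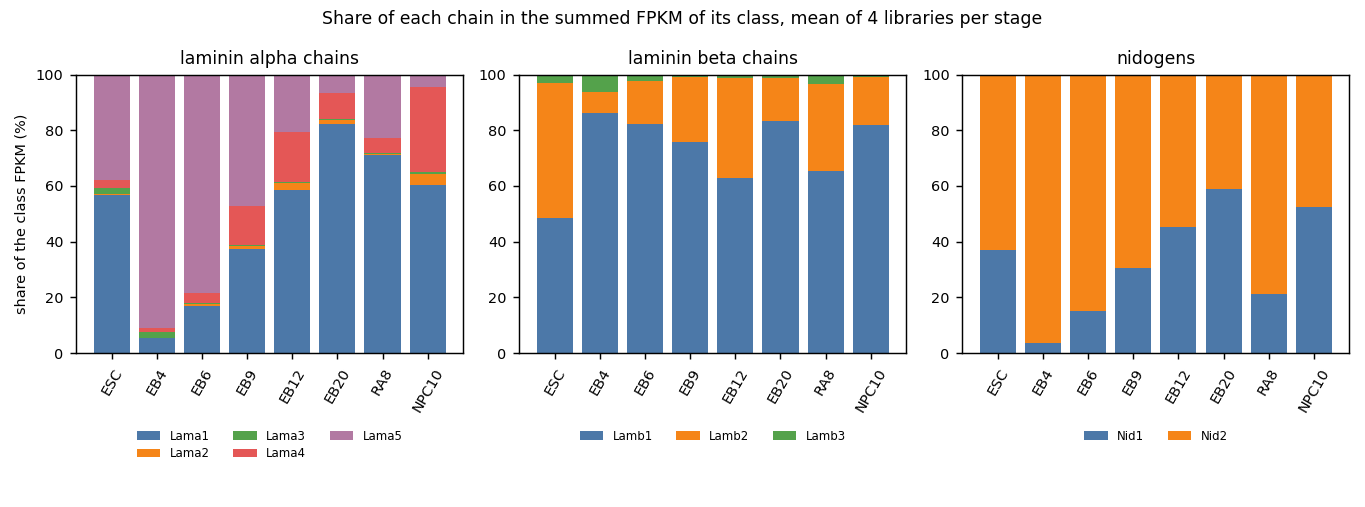
Share (vertical axis, percent of summed FPKM) of each chain within the laminin alpha and beta classes and of each nidogen, by stage, as the mean of 4 libraries. Lama5 makes up 91.0% of the alpha sum at EB4 and Lama1 makes up 82.3% at EB20.

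EB4 was compared with ESCs to see what followed aggregation. Lama1, Nid1, Lamb2, Lamc1 and Nid2 fell, and Lama5 and Lamb1 rose. Nid1 had 1.99, 1.91, 2.40 and 3.17 FPKM in the BPA, BPF, BPS and DMSO libraries of EB4, against 72.4, 75.7, 82.9 and 72.4 in those of ESCs. All EB4 libraries were far below all ESC libraries, and the log2 difference was -4.97 ± 0.48 (31.5-fold lower, adjusted p = 5.75e-10). Lama1 had 0.70, 0.98, 1.18 and 1.41 FPKM at EB4, against 11.3, 11.1, 14.5 and 11.5 in ESCs, in the same order of treatments, a difference of -3.49 ± 0.21 (adjusted p = 3.05e-14). Lamb1 had 33.2, 33.7, 34.5 and 45.9 FPKM at EB4, against 9.50, 10.2, 10.7 and 8.87 in ESCs, a difference of 1.93 ± 0.28 (adjusted p = 7.03e-07).

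Lama5 rose by 1.21 ± 0.21 at EB4, and the changes of the other fallen genes were -1.59 ± 0.10 for Lamb2, -1.19 ± 0.17 for Lamc1 and -1.07 ± 0.21 for Nid2. Lama4 differed by -1.47 ± 0.70 without passing the threshold (adjusted p = 0.0691). The 2 higher and 5 lower calls among 10 stood beside 14.4% of all genes called higher and 13.6% called lower, and the median difference of the set was -1.13, against 0.00 over all genes. Without the DMSO libraries Lama5 fell short of the fold limit at 0.91, and Lama4 was called lower.

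Other basement membrane genes, a list of 62 of which 59 were tested, moved mostly the other way at EB4, with 21 higher and 5 lower (median 0.37). Pxdn, the peroxidase that crosslinks collagen IV, was higher by 3.34 ± 0.18, the collagen receptor gene Ddr1 by 2.58 ± 0.11 and the laminin beta chain gene Lamb3 by 2.20 ± 0.31. Timp1, an inhibitor of matrix proteases, fell by 2.54 ± 0.27. Of the 9 tested genes for collagens IV, XV and XVIII and their processing, 5 were higher and 0 lower.

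EB6 was compared with EB4, the interval in which germ layer cells appear. Lama1, Lama2, Lamb2 and Nid1 rose and no member fell (4 of 10 higher, beside 10.8% of all genes higher and 8.75% lower; set median 0.61, against 0.00 over all genes). Nid1 had 6.51, 6.59, 6.85 and 7.94 FPKM in the BPA, BPF, BPS and DMSO libraries of EB6, each above every EB4 library, a difference of 1.51 ± 0.47 (adjusted p = 0.00778). Lama1 rose by 1.46 ± 0.22 and Lamb2 by 1.05 ± 0.10. Lama2 had 68 reads in the 4 EB6 libraries together, against 2 at EB4, a ratio of 32.2 with a 95% interval of 8.58 to 271 that covers counting error only. Nid2 (-0.69 ± 0.21) and Hspg2 (-0.74 ± 0.25) passed the adjusted p but not the fold limit. Without the DMSO libraries Lama4 was called higher too. In the wider list 21 genes were higher and 6 lower, led by Fbln2 (4.61 ± 0.29), which encodes a fibulin, by the collagen IV chain genes Col4a6 (4.31 ± 0.32) and Col4a5 (3.71 ± 0.24), and by P3h2 (3.5 ± 0.23), a collagen prolyl hydroxylase.

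At EB9, compared with EB6, the called members were Lama4 and Lama1, both higher (2 of 10, beside 10.7% of all genes higher and 3.97% lower; set median 0.35, against 0.03 over all genes). Lama4 had 2.34, 4.25 and 5.29 FPKM in the BPA, BPF and BPS libraries of EB9 and 0.53 in the DMSO library, against 0.42, 0.85, 0.91 and 0.41 at EB6. The 3 bisphenol libraries of EB9 were above all EB6 libraries and the DMSO library was not, and the difference was 2.08 ± 0.52 (adjusted p = 0.00143). Lama1 rose by 1.27 ± 0.19 (adjusted p = 2.19e-06). Lamb2 was higher by 0.81 ± 0.09, short of the fold limit, and Nid1 by 0.95 ± 0.42 (adjusted p = 0.0574), which was called once the DMSO libraries were left out. In the wider list 14 genes were higher and 4 lower, including Ntn4, a netrin that binds laminin (2.42 ± 0.19), Itga9, an integrin chain (2.09 ± 0.30), and Mmp9, a gelatinase (-1.96 ± 0.33).

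EB12 was then compared with EB9, and Lama5 was the only member called, lower by 1.49 ± 0.22 (adjusted p = 3.9e-06). It had 2.52, 4.48, 4.96 and 2.21 FPKM in the BPA, BPF, BPS and DMSO libraries of EB12, against 9.97, 9.12, 10.9 and 8.32 at EB9, with no overlap. Of all genes 7.56% were called higher and 2.43% lower, and the set median was -0.23, against -0.01. Lamc1 (-0.65 ± 0.17) and Nid2 (-0.73 ± 0.22) passed the adjusted p alone. The stage term averages over treatments, and the DMSO library, 1 a stage, fell further in some genes. From EB9 to EB12 it went from 30.65 to 9.83 FPKM for Lamb1, 46.2 to 19.6 for Lamc1 and 20.7 to 8.54 for Nid2. In DMSO Lama1, Lama4 and Lamb2 were slightly higher at EB12. The course in DMSO alone was not tested. The wider list had 4 genes higher and 5 lower, among them Ntn4 (1.45 ± 0.14), P3h2 (-1.50 ± 0.17) and Frem2, a component of the embryonic epithelial basement membrane (-1.34 ± 0.17).

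EB20 was compared with EB12, the longest interval, in which most members rose. Lama1, Lama2, Lama4, Lamb1, Lamc1, Nid1 and Nid2 were called higher and none lower, 7 of 10 beside 17.6% of all genes called higher and 8.78% lower, and the set median was 1.12, against 0.00 over all genes. Lama1 had 48.3, 62.9, 94.4 and 84.1 FPKM in the BPA, BPF, BPS and DMSO libraries of EB20, against 10.1, 9.03, 12.6 and 7.04 at EB12. Every EB20 library was above every EB12 library, and the difference was 2.77 ± 0.18 (6.82-fold, adjusted p = 1.53e-13).

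Lamb1 had 98.0, 126, 165 and 145 FPKM at EB20, against 26.3, 34.7, 41.0 and 9.83 at EB12, in the same order of treatments (2.16 ± 0.27, adjusted p = 6.44e-08). Lamc1, whose product pairs with those of Lama1 and Lamb1 in a trimer, had 96.9, 125, 162 and 134 FPKM at EB20, against 28.6, 34.4, 43.2 and 19.6 at EB12 (1.93 ± 0.18). In Lama1, Lamb1 and Lamc1 alike the EB20 libraries ranked BPS, DMSO, BPF and BPA from high to low. The summed FPKM of 12 primitive, parietal and visceral endoderm markers in those libraries was 156 for BPS, 151 for DMSO, 260 for BPF and 107 for BPA, and its part in these levels was not tested.

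Nid1 rose by 1.68 ± 0.40 and Nid2 by 1.08 ± 0.22 at EB20. Lama4 (1.08 ± 0.44, adjusted p = 0.0311) and Lama2 (1.16 ± 0.45, adjusted p = 0.0235) were called as well, and lost the call in 5 and 6 of 11 alternatives. Lamb2 (0.74 ± 0.09) and Lama5 (0.59 ± 0.22) passed the adjusted p alone, and Hspg2 passed neither limit (0.41 ± 0.26). Without the DMSO libraries Nid2 fell short of the fold limit at 0.99. In the wider list 20 genes were higher and 1 lower: Itga7, the laminin-binding integrin chain of muscle (4.45 ± 0.25), Col15a1 (3.30 ± 0.51), the collagen IV chain gene Col4a1 (2.46 ± 0.26) and Vwa1 (2.34 ± 0.20), a perlecan-binding matrix protein, were the leading ones. Of the 9 genes for glycosylation of dystroglycan, the laminin receptor, 0 were called in either direction.

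RA8 was set against EB4, the EBs from which the neural protocol continued with retinoic acid. Lama1 and Lamb2 rose, and Lama5, Lamb1, Nid2 and Hspg2 fell, 2 and 4 of 10 beside 19% of all genes higher and 15.7% lower (set median -0.46, against 0.03). Lama1 had 9.09, 10.3, 8.52 and 8.16 FPKM in the BPA, BPF, BPS and DMSO libraries of RA8, against values from 0.70 to 1.41 at EB4, a difference of 3.0 ± 0.21 (adjusted p = 4.99e-13). Lama5 had 2.94, 3.54, 2.03 and 3.18 FPKM at RA8, against 13.8, 16.9, 16.1 and 25.9 at EB4 (-2.74 ± 0.23, adjusted p = 1.63e-11). Neither gene had overlapping libraries, so the alpha chain of highest level was Lama1 at RA8 and Lama5 at EB4.

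Nid2 fell by 2.73 ± 0.23, Lamb1 by 1.43 ± 0.27 and Hspg2 by 1.42 ± 0.26 at RA8. Lamb2 rose by 1.01 ± 0.10, close to the fold limit, and Lamc1 lay just inside it at -0.96 ± 0.18. Lama2 had 17 reads at RA8, against 2 at EB4 (ratio 8.11, 95% interval 1.92 to 72.3, counting error only), and Lama4 differed by 1.49 ± 0.70 (adjusted p = 0.0575). Both were called higher without the DMSO libraries. The wider list had 21 genes higher and 11 lower, with Ntn4 (5.17 ± 0.23), the protease gene Plat (4.51 ± 0.24) and Col4a5 (4.29 ± 0.24) in front.

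NPC10 was compared with RA8 to follow plating as a neural monolayer. Lama2, Lama4 and Nid1 rose and Lama5 fell, 3 and 1 of 10 beside 18.1% of all genes higher and 17.4% lower (set median -0.06, against -0.02). Nid1 had 10.8, 9.07, 10.3 and 19.0 FPKM in the BPA, BPF, BPS and DMSO libraries of NPC10, against 2.82, 2.38, 2.40 and 2.93 at RA8, a difference of 2.34 ± 0.46 (adjusted p = 4.61e-05). Lama4 had 3.04, 2.60, 2.75 and 4.94 FPKM at NPC10, against 0.71, 0.67, 0.58 and 0.75 at RA8 (2.52 ± 0.52). Lama2 was higher by 3.68 ± 0.65, on 166 reads against 17. Lama5 had 0.49, 0.29, 0.45 and 0.75 FPKM at NPC10 and fell by 2.48 ± 0.28 (adjusted p = 9.81e-09). None of these sets of libraries overlapped.

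Markers of mesenchyme and fibroblasts, 10 genes that include Pdgfrb, Col1a1 and Dcn, summed to 189 to 460 FPKM at NPC10 and 18.3 to 25.5 at RA8, with 9 of 10 called higher and none at 0 in all libraries of either stage. Their part in the higher Lama2, Lama4 and Nid1 was not tested. Lamb2 and Hspg2 fell by 0.93 ± 0.10 and 0.94 ± 0.27, short of the fold limit, and were called without the DMSO libraries. The wider list had 7 genes higher and 12 lower. Egfl6 was higher by 3.37 ± 0.45, while Frem2 fell by 3.43 ± 0.23, the collagen XVIII gene Col18a1 fell by 2.79 ± 0.28 and the laminin alpha 5 receptor gene Bcam fell by 2.34 ± 0.22.

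Neural cultures were also set against EBs of similar age. At RA8, set against the mean of EB6 and EB9, 6 of 10 members were called lower (Lama2, Lama5, Lamb1, Lamc1, Nid1 and Nid2) and 0 higher, beside 10.3% of all genes lower and 8.62% higher, with a set median of -1.33 (all genes -0.01). Lama5 fell by 2.0 ± 0.20, Nid1 by 1.95 ± 0.42, Nid2 by 1.84 ± 0.21 and Lamb1 by 1.44 ± 0.24. Lama2 was lower by 2.24 ± 0.64, on 17 reads at RA8 against 68 at EB6 and 104 at EB9. Its call was lost in 2 of 11 alternatives. Lama1 differed the other way, by 0.91 ± 0.15, and passed the adjusted p alone, and it was called higher, and Lama4 lower, without the DMSO libraries. At NPC10, set against the mean of EB9 and EB12, Lama5, Lamb2, Lamc1, Nid2 and Hspg2 were called lower and 0 higher, 5 of 10 beside 22.4% lower and 16.4% higher over all genes (set median -0.93, against -0.07). Lama5 fell by 3.44 ± 0.26 (10.8-fold, adjusted p = 1.77e-12) and Lamb2 by 1.81 ± 0.09. Nid2 fell by 1.02 ± 0.20, close to the fold limit, and its call was lost in 4 of 11 alternatives. Without the DMSO libraries Lamb1 was called lower too.

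Cell type markers moved with these differences. At RA8 the endoderm markers summed to 26.1 to 30.8 FPKM, against 57.0 to 84.9 at EB6 and 66.7 to 150 at EB9, with 8 of 12 called lower. Mesenchyme and fibroblast markers summed to 18.3 to 25.5 FPKM at RA8, against 57.0 to 124 at EB6 and 215 to 301 at EB9, with 8 of 10 called lower. At NPC10 the endoderm markers summed to 5.8 to 13.5 FPKM, against 66.7 to 150 at EB9 and 41.4 to 276 at EB12, with 12 of 12 called lower. Endothelial markers summed to 3.19 to 6.75 FPKM at NPC10, against 8.05 to 62.1 at EB9 and 4.48 to 34.6 at EB12, with 7 of 8 called lower, and 4 of 10 mesenchyme and fibroblast markers were called lower and 1 higher. All 6 neuron markers were called higher in both comparisons. The part of these cell types was not tested.

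The wider list moved the same way, with 3 genes higher and 14 lower at RA8 and 2 higher and 21 lower at NPC10. The 4 leading genes at NPC10 were Frem2 (-4.80 ± 0.22), Frem1 (-4.40 ± 0.27), Fbln2 (-3.99 ± 0.25) and P3h2 (-3.98 ± 0.21). At RA8 they were Fbln2 (-4.04 ± 0.25), Mmp9 (-3.45 ± 0.38), P3h2 (-2.77 ± 0.18) and Frem1 (-2.38 ± 0.22).

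**Figure D3:**
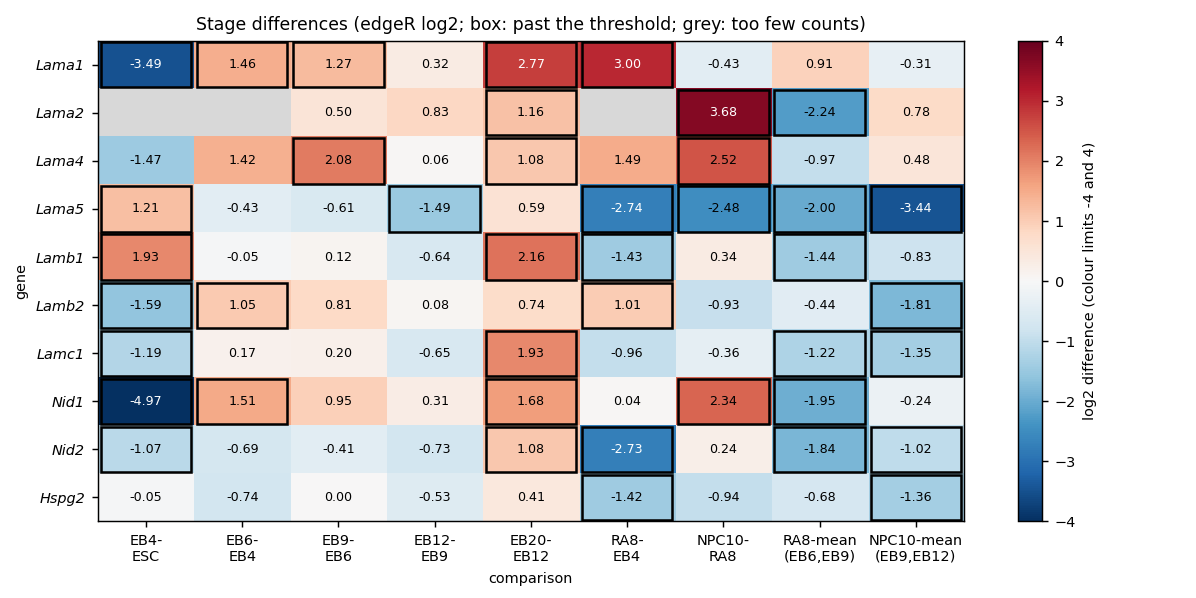
Log2 differences between stages (columns) for each gene (rows), as edgeR estimates over 4 libraries a stage, with later or neural stage minus its comparison stage. Boxes mark calls at an adjusted p under 0.05 and an absolute log2 difference of 1 or more, and grey cells mark Lama2 where a stage had under 4 reads; the EB20 column has 7 boxed increases and the EB4 column 5 boxed decreases.

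The bisphenols were compared with DMSO over all 8 stages, with stage as a term in the model. BPA, BPF and BPS each changed 0 of the 10 genes, beside 0.166%, 0.992% and 1.15% of all genes, in that order. At an unadjusted p under 0.05 the count was 2 for each compound, and DESeq2 called 0, 0 and 1. Lama2 differed by 1.28 ± 0.47 for BPA, 1.66 ± 0.46 for BPF and 1.79 ± 0.46 for BPS, with adjusted p = 0.334, 0.0795 and 0.0501. Lama4 differed by 0.80 ± 0.39, 1.05 ± 0.39 and 1.09 ± 0.39, and Nid1 by 0.24 ± 0.31, 0.39 ± 0.31 and 0.53 ± 0.31, for the same compounds. For the mean of the 3 compounds Lama2 alone was called (1.58 ± 0.41, adjusted p = 0.0337), 1 of 10 beside 2.73% of all genes, and the call was lost in 6 of 14 alternatives. Without EB6, EB9, EB12 or EB20, each left out alone, the count for the mean was 0, and without NPC10 the counts were 1 for BPA and 2 for BPF, BPS and the mean. Without RA8 the count for BPS was 1. The 3 comparisons share the DMSO libraries. In the wider list Frem1, of the embryonic epithelial basement membrane, was called higher for BPF (0.87 ± 0.20) and BPS (0.81 ± 0.20).

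Taken stage by stage, the sign and size of the difference varied. At ESC 0 members were called (0% of all genes; 0 at an unadjusted p under 0.05 and 0 by DESeq2). At EB4 Hspg2 was called lower, 1 of 10 beside 0.563% of all genes. It had 14.3, 16.8 and 16.9 FPKM in the BPA, BPF and BPS libraries, against 33.9 in the DMSO library, a difference of -1.09 ± 0.22 (adjusted p = 0.0111). Without the BPF libraries of all stages the count of calls was 0, and without the BPA libraries it was 2. Lama5 had 13.8, 16.9 and 16.1 FPKM in the same bisphenol libraries, against 25.9 in the DMSO library (-0.74 ± 0.21, adjusted p = 0.136). The summed endoderm markers were 9.33 to 11.7 FPKM in the bisphenol libraries and 14.8 in the DMSO library of EB4, and their part was not tested. At EB6 0 members were called, beside 2.55% of all genes (1 at an unadjusted p under 0.05 and 0 by DESeq2). Without the BPA libraries of all stages the count was 1. In the wider list 6 genes were higher and 1 lower at EB6, with Smoc2 (2.35 ± 0.30), Lamb3 (2.06 ± 0.49), Frem1 (1.53 ± 0.25) and Npnt (-1.10 ± 0.23) in front.

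At EB9 Lama2, Lama4, Nid1 and Nid2 were higher in bisphenol-treated EBs, 4 of 10 beside 7.49% of all genes called. Lama2 had 100 reads in the 3 bisphenol libraries together, against 4 in the DMSO library. The ratio at equal depth was 8.47, with a 95% interval of 3.21 to 31.7 for counting error only, and the call was lost in 3 of 9 alternatives. Nid1 had 11.1, 20.8 and 23.9 FPKM in the BPA, BPF and BPS libraries, against 4.81 in the DMSO library, a difference of 1.93 ± 0.26 (3.82-fold, adjusted p = 2.91e-05). Lama4 had 2.34, 4.25 and 5.29 FPKM, against 0.53 with DMSO, a difference of 2.88 ± 0.37 (7.36-fold, adjusted p = 1.75e-05). Nid2 had 30.3, 32.9 and 40.3 FPKM in the BPA, BPF and BPS libraries, against 20.7 with DMSO (0.72 ± 0.16, adjusted p = 0.00498). The bisphenol libraries were all above the DMSO library in these genes, and BPA was the lowest and BPS the highest of the 3. Without the BPF libraries of all stages the count of calls was 2.

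At EB12 all 10 genes were higher in each of the 3 bisphenol libraries than in the DMSO library, and Lama2, Lama4, Lamb1, Lamc1, Nid1 and Nid2 were called, 6 of 10 beside 18.9% of all genes. Nid1 had 21.0, 25.3 and 28.0 FPKM in the BPA, BPF and BPS libraries, against 3.0 in the DMSO library (3.0 ± 0.29, 8.02-fold, adjusted p = 2.87e-08). Lamb1 had 26.3, 34.7 and 41.0 FPKM, against 9.83 with DMSO (1.75 ± 0.25, adjusted p = 1.17e-05). Nid2 had 18.4, 23.3 and 27.5 FPKM, against 8.54 with DMSO (1.39 ± 0.18), and Lamc1 28.6, 34.4 and 43.2, against 19.6 (0.81 ± 0.20, adjusted p = 0.00606). In each of these 4 genes the bisphenol libraries again ranked BPS, BPF and BPA.

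Lama4 had 3.78, 4.21 and 4.24 FPKM at EB12 in the BPA, BPF and BPS libraries, against 0.71 with DMSO (2.48 ± 0.36, 5.57-fold). Lama2 had 188 reads in the 3 bisphenol libraries of EB12 together, against 4 in the DMSO library, a ratio of 15.6 at equal depth with a 95% interval of 6.0 to 57.9 for counting error only. Lama5 (0.81 ± 0.29, adjusted p = 0.051), Lama1 (0.55 ± 0.26) and Hspg2 (0.46 ± 0.25) were not called.

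At EB20 Lama2, Lama4, Lamb2, Nid1, Nid2 and Hspg2 were higher in bisphenol-treated EBs, 6 of 10 beside 19.6% of all genes. Lama4 had 10.4, 10.3 and 8.48 FPKM in the BPA, BPF and BPS libraries, against 0.96 in the DMSO library (3.28 ± 0.34, 9.73-fold, adjusted p = 1.29e-07). Lama2 had 1.21, 1.59 and 1.67 FPKM, against 0.13 with DMSO (3.48 ± 0.55, adjusted p = 5.09e-05). Nid1 had 74.1, 77.3 and 80.8 FPKM, against 28.3 with DMSO (1.39 ± 0.22). Nid2 was higher by 0.94 ± 0.16, Lamb2 by 0.48 ± 0.10 and Hspg2 by 0.74 ± 0.25 (adjusted p = 0.0373, lost in 4 of 9 alternatives).

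The trimer chains Lama1, Lamb1 and Lamc1 did not separate by treatment at EB20, where the DMSO library lay between the bisphenol libraries for each. The alpha class differed in makeup. Lama4 was 15.9%, 12.6% and 7.54% of the alpha sum in the BPA, BPF and BPS libraries of EB20, against 1.08% in the DMSO library. Lama1 was 74.2%, 76.7% and 84.0% in the BPA, BPF and BPS libraries, against 94.3% in the DMSO library.

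Markers of several cell types moved with these differences, those of mesenchyme and fibroblasts among them. Their sum was 513 to 556 FPKM in the bisphenol libraries of EB12, against 45.0 in the DMSO library, with 10 of 10 markers called higher. At EB20 it was 1342 to 1505 in the bisphenol libraries, against 153 in the DMSO library, with 9 of 10 called higher. At EB9 it was 253 to 301 in the bisphenol libraries, against 215 in the DMSO library, with 8 called higher and 1 lower. Sums of 5 smooth muscle markers were 334 to 589 FPKM with bisphenols and 19.2 with DMSO at EB12, and 475 to 708 with bisphenols and 75.9 with DMSO at EB20, with 5 of 5 called higher at both stages. Sums of 8 endothelial markers were 17.2 to 62.1 FPKM with bisphenols and 8.05 with DMSO at EB9, 15.8 to 34.6 with bisphenols and 4.48 with DMSO at EB12, and 15.6 to 20.8 with bisphenols and 10.4 with DMSO at EB20, and 6, 6 and 2 of 8 were called higher. Cardiac and skeletal muscle markers summed to 20.8 to 74.4 FPKM with bisphenols and 10.3 with DMSO at EB9, 14.9 to 126 with bisphenols and 4.54 with DMSO at EB12, and 14.3 to 62.8 with bisphenols and 9.22 with DMSO at EB20, with 2, 5 and 1 of 8 tested called higher and 1, 1 and 0 lower. The 12 endoderm markers summed to 86.6 to 150 FPKM with bisphenols and 66.7 with DMSO at EB9 and to 77.9 to 276 with bisphenols and 41.4 with DMSO at EB12, with 2 and 6 called higher, whereas at EB20 the DMSO library lay among the bisphenol libraries and 1 was called higher.

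Neural markers went the other way. The 6 neural progenitor markers summed to 194 to 232 FPKM with bisphenols and 326 with DMSO at EB9 and to 491 to 573 with bisphenols and 763 with DMSO at EB12, with 5 and 6 called lower. At EB20 the sums were 313 to 374 with bisphenols and 271 with DMSO, with 2 called higher and 1 lower. The 6 neuron markers summed to 92.4 to 141 FPKM with bisphenols and 195 with DMSO at EB9, 398 to 490 with bisphenols and 585 with DMSO at EB12, and 717 to 831 with bisphenols and 899 with DMSO at EB20, with 4, 4 and 3 called lower. No marker of these lists was at 0 in every library of those stages. The part of these cell types in the differences was not tested.

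The wider list followed the same course, with 15 genes higher and 2 lower at EB9, 31 higher and 2 lower at EB12, and 26 higher and 0 lower at EB20. Smoc2, a matricellular protein gene of the basement membrane, was higher by 2.43 ± 0.29 at EB9, 3.17 ± 0.36 at EB12 and 3.17 ± 0.41 at EB20. Col15a1 had 40, 75 and 144 reads in the BPA, BPF and BPS libraries of EB9, against 3 in the DMSO library. Mmp2, a gelatinase that cleaves collagen IV, was higher by 2.38 ± 0.15 at EB12 and 3.15 ± 0.15 at EB20. Itga1, a collagen- and laminin-binding integrin chain, was higher by 3.04 ± 0.49 and Col15a1 by 2.91 ± 0.50 at EB20. Lamc3, another gamma chain gene, was higher by 3.99 ± 0.53 at EB12, on 7 reads in the DMSO library. Of 10 turnover genes 8 were higher at EB12 and 7 at EB20, with 0 lower at either, while of the 9 dystroglycan glycosylation genes 1 and 0 were called.

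In the neural branch the sign was mixed at RA8 and negative at NPC10. At RA8 0 members were called, beside 2.34% of all genes (0 at an unadjusted p under 0.05 and 0 by DESeq2), and 3 members were higher and 3 lower in each bisphenol library than in the DMSO library. At NPC10 all 10 genes were lower in each bisphenol library than in the DMSO library, and Lamb1, Lamc1, Nid1 and Hspg2 were called, 4 of 10 beside 2.25% of all genes. Lamb1 had 14.9, 12.9 and 13.7 FPKM in the BPA, BPF and BPS libraries, against 29.0 in the DMSO library (-1.07 ± 0.21, adjusted p = 0.00338). Hspg2 had 3.77, 2.33 and 3.15 FPKM, against 6.98 with DMSO (-1.18 ± 0.25, adjusted p = 0.00659). Nid1 had 10.8, 9.07 and 10.3 FPKM, against 19.0 with DMSO (-0.91 ± 0.21), and Lamc1 11.3, 10.7 and 13.1, against 21.9 (-0.90 ± 0.19).

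Lama4 (-0.82 ± 0.26), Nid2 (-0.57 ± 0.17) and Lama5 (-0.86 ± 0.46) were not called at NPC10, though DESeq2 called Nid2 (adjusted p = 0.0195). Without the BPF libraries of all stages the count of calls was 0, with differences of -1.03 for Lamb1, -0.85 for Lamc1, -0.85 for Nid1 and -1.02 for Hspg2. Mesenchyme and fibroblast markers summed to 189 to 221 FPKM in the bisphenol libraries and 460 in the DMSO library, with 6 of 10 called lower, and smooth muscle markers to 38.8 to 86.2 FPKM in the bisphenol libraries and 167 in the DMSO library, with 3 of 5 called lower. Endoderm markers summed to 5.8 to 6.32 FPKM in the bisphenol libraries and 13.5 in the DMSO library, with 1 of 12 called lower. Their part was not tested. In the wider list 17 genes were lower and 1 higher, with Smoc2 (-1.66 ± 0.30), Timp1 (-1.64 ± 0.40) and Egfl6 (-1.47 ± 0.39) among those lower.

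**Figure D4:**
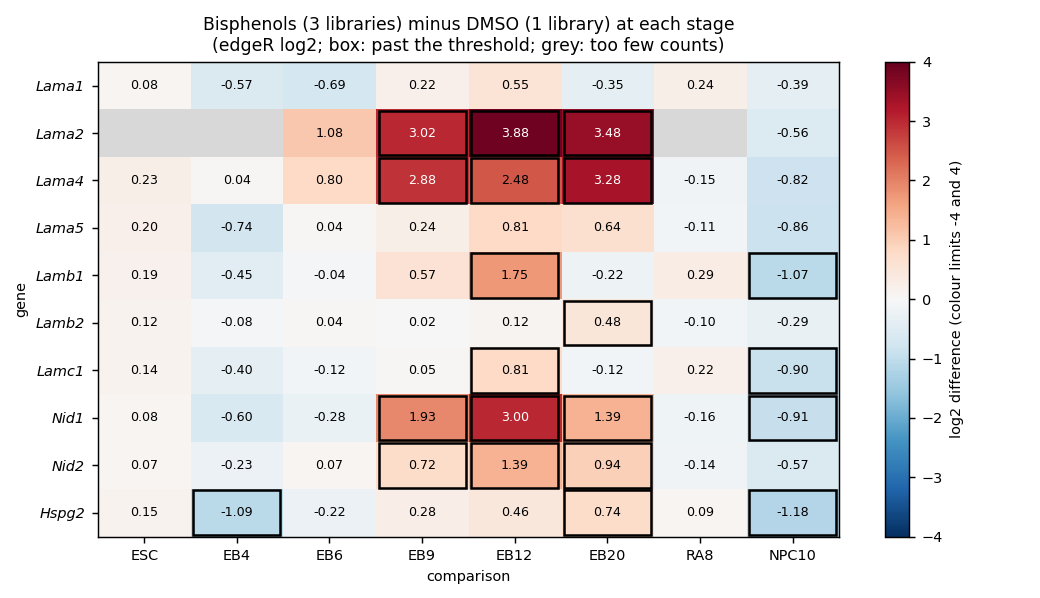
Log2 difference of the 3 bisphenol libraries minus the DMSO library (edgeR) for each gene (rows) and stage (columns), with boxes at an adjusted p under 0.05 and grey cells for Lama2 where the DMSO library had under 4 reads. Boxed increases stand at EB9, EB12 and EB20 and boxed decreases at EB4 and NPC10.

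The difference between branches was tested directly over the 24 libraries of the later stages. In the global branch Lama2, Lama4, Nid1 and Nid2 were higher with bisphenols, 4 of 10 beside 19.3% of all genes called, and in the neural branch 0 were called, beside 0.0192% (1 at an unadjusted p under 0.05 and 0 by DESeq2). Lama4 differed by -0.60 ± 0.31 in the neural branch and 2.59 ± 0.27 in the global branch, and the interaction was -3.19 ± 0.41 (adjusted p = 8.17e-05). Lama2 differed by -0.37 ± 0.45 in the neural and 2.96 ± 0.38 in the global branch (interaction -3.33 ± 0.59, adjusted p = 0.0017). Nid1 differed by -0.63 ± 0.40 and 1.35 ± 0.30 (interaction -1.98 ± 0.49, adjusted p = 0.0167), and Nid2 by -0.37 ± 0.20 and 0.73 ± 0.14 (interaction -1.10 ± 0.24, adjusted p = 0.0073), neural branch first.

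These 4 interactions among 10 stood beside 8.1% of all genes called, and without NPC10 only that of Lama4 was called, 1 of 10. The interactions without NPC10 were -2.38 for Lama2, -1.50 for Nid1 and -0.86 for Nid2. The difference of Lama1 was -0.09 ± 0.24 in the neural branch and -0.08 ± 0.17 in the global branch, neither called, and its sign changed in each branch when single stages were left out. Of the wider list, 20 interactions were called, all negative: Col15a1 (-4.21 ± 0.67), Smoc2 (-3.40 ± 0.33), Mmp2 (-2.21 ± 0.55) and Itga9 (-1.51 ± 0.30) led. Of the 10 mesenchyme and fibroblast markers 6 had a called negative interaction, with a median of -2.59 over the list, and their part was not tested.

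**Figure D5:**
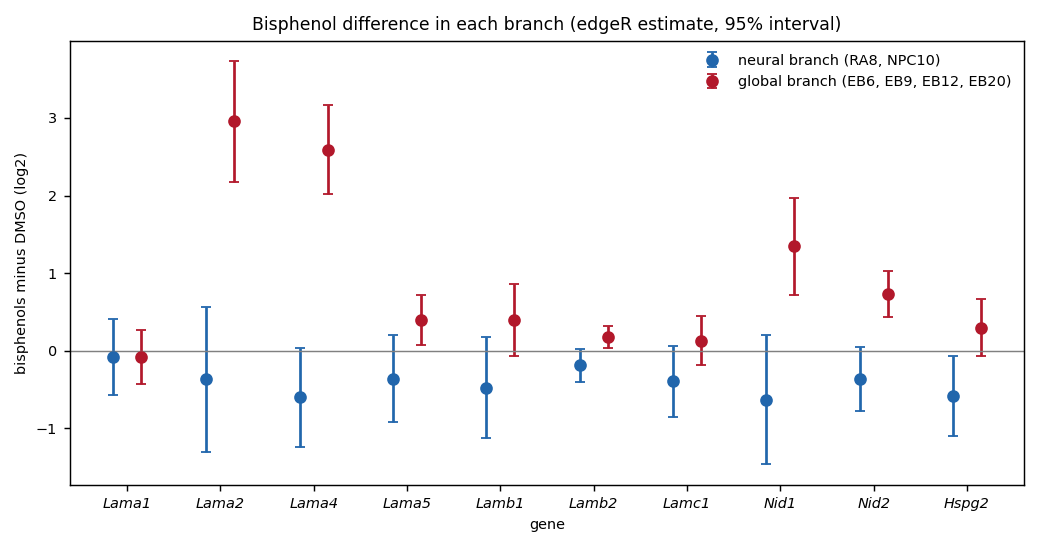
Bisphenols minus DMSO (vertical axis, log2, edgeR estimate with 95% interval) for each gene in the neural branch (2 stages, left point) and the global branch (4 stages, right point). The points of Lama2, Lama4, Nid1 and Nid2, called in the global branch, are above 0 there and below 0 in the neural branch. Those of Lama5, Lamb1, Lamb2, Lamc1 and Hspg2 have the same signs without a call, and those of Lama1 lie close to 0 in both. No gene was called in the neural branch.

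The compounds were also compared singly in the global branch, over the 16 libraries of EB6 to EB20, an analysis added after the results over all stages were seen. BPA changed 2 of the 10 genes (beside 3.57% of all genes), BPF 4 (11.8%) and BPS 5 (14%), all higher. Lama4 differed by 2.33 ± 0.34 for BPA, 2.69 ± 0.34 for BPF and 2.73 ± 0.34 for BPS, and Lama2 by 2.47 ± 0.37, 3.12 ± 0.36 and 3.23 ± 0.36 for the same compounds. Nid1 differed by 1.39 ± 0.41 for BPF (adjusted p = 0.0398), by 1.52 ± 0.41 for BPS (adjusted p = 0.025) and by 1.08 ± 0.41 for BPA, which was not called (adjusted p = 0.176). Nid2 differed by 0.72 ± 0.17 for BPF, 0.91 ± 0.17 for BPS and 0.55 ± 0.17 for BPA, the last not called (adjusted p = 0.101). Lama5 was called for BPS (0.56 ± 0.16, adjusted p = 0.0328). The compounds share their DMSO libraries here.

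Pairs of compounds, which differ in the group that joins the phenol rings, were compared at the same dose and stages. A carbon carrying methyl groups joins the rings in BPA, a methylene group in BPF and a sulfonyl group in BPS. Over all stages BPA against BPF changed 0 of the 10 genes (0% of all genes), BPA against BPS 0 (0.0064%) and BPF against BPS 0 (0%). At an unadjusted p under 0.05 the counts were 0, 2 and 0 in that order, and DESeq2 called 0 in each of the 3 pairs. The difference of Lama1 between BPA and BPS was -0.36 (95% interval -0.62 to -0.10), and that of Lama2 was -0.51 (-1.34 to 0.31).

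In EB6 to EB20 the counts were again 0 for BPA against BPF (0%), BPA against BPS (0.0448%) and BPF against BPS (0%), with 1, 6 and 0 at an unadjusted p under 0.05 and 0 in each pair by DESeq2. There Lama2 differed between BPA and BPS by -0.76 (95% interval -1.35 to -0.17, adjusted p = 0.486), Lama5 by -0.40 (-0.745 to -0.063) and Nid1 by -0.45 (-1.26 to 0.37). The adjusted p-values missed the threshold, which does not show that the compounds act alike.

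The genes whose pattern over the 32 libraries was most like each member were listed by the Pearson correlation of log2(FPKM + 1) among tested genes averaging at least 5 FPKM. Libraries of a stage share their cells' age and medium, and the values are descriptions. For Lama4 they were Pdgfrb (0.953), Col3a1 (0.921) and Dcn (0.920), for Lama2 Col6a2 (0.942), Col1a1 (0.926) and Dcn (0.921). For Lama5 they were Rab11fip1 (0.958) and Plekhg3 (0.954), and for Hspg2 Tln1 (0.934), Piezo1 (0.927) and Sdc4 (0.909). Lama1 was closest to Cnn3 (0.931), B4galt5 (0.920) and Mib2 (0.916), and Lamb1 to Dab2 (0.912), Rrbp1 (0.910) and Emp2 (0.902). Lamb2 was closest to Dkk3 (0.965), P4ha1 (0.951) and Fndc3b (0.947), and Lamc1 to Ggta1 (0.958), Aldoc (0.951) and Glrx (0.929). Nid1 was closest to Emp1 (0.939), Nfe2l1 (0.918) and Rab3il1 (0.912), and Nid2 to Myo1c (0.951), Hspb1 (0.951) and A4galt (0.95). Lama2 and Lama4 shared Dcn.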

How the data were processed

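The 32 libraries (8 stages, 4 treatments, 1 library each) were made at BGI from RNA taken up in Trizol and cleaned on RNeasy Plus columns, per the labels' protocols. The authors deposited expected counts (estimated reads per gene, not normalized) and FPKM per library in RSEM-style gene tables. Tools named in the submitters' processing notes are HISAT, Bowtie2 and RSEM, with build mm10, and how each was used is not given in the sources used here. Genes not listed in a library were set to 0. How reads shared by related genes were divided, and whether strand was used, is likewise not given.

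Expected counts were rounded and tested with edgeR 4.0.16 in R 4.3.3 (TMM scaling, quasi-likelihood test, genes with 1 CPM or more in at least 4 libraries, 15632 genes). Stages and treatments were fitted together with additive terms (21 residual degrees of freedom). Bisphenols as a class were set against DMSO within stages and between branches (16 residual degrees of freedom each). Within stages the DMSO variance rests on the spread among bisphenol libraries. In the fit of branches the residual also holds how the difference from DMSO varies over the stages of a branch. Alternatives were DESeq2 1.42.0, limma 3.58.1 on log2(FPKM + 1) and log2(FPKM + 0.1), other size factors and filters, stage alone, and leaving out libraries; the fits to EB6 to EB20 alone were added after seeing the data. Members, gene lists and tests were chosen with earlier results of these data known. Every member is named. From the wider list, names were taken from up to 4 called genes per comparison with the largest absolute log2 difference and a mean of 1 FPKM or more over the libraries compared. Genes most like a member were the 3 of highest correlation, passing over unnamed gene models. Promoter letters are from RefSeq (GRCm38.p6). Some genes that these rules would name are not reported here.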

Additional observations from a re-analysis of the deposited data

Results flagged for a closer look

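Among 80 sets of 4 libraries (10 genes at 8 stages), 13 held 1 library set apart from the other 3 by Dixon's 95% criterion (gap to the nearest library over the whole range). The criterion's rate of about 1 in 20 assumes independent, normally distributed values. The 10 genes of a stage share their 4 libraries, so the count cannot be judged against that rate. The lone library was DMSO in 7 and a bisphenol in 6. With DMSO apart, Lama4 was lowest at EB12 (0.71 FPKM, next 3.78) and Nid1 lowest at EB20 (28.3, next 74.1). The DMSO library was highest for Lamb1 at EB4 (45.9, next 34.5) and NPC10 (29.0, next 14.9), for Hspg2 at EB4 (33.9, next 16.9), and at NPC10 for Lama1 (7.84, next 6.14) and Lama2 (0.55, next 0.38).

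A bisphenol library was highest in the other 6, with only 2 and 9 reads in those of Lama2 at EB4 and RA8. These were BPS in ESCs for Lama1 (14.5 FPKM, next 11.5) and Hspg2 (25.9, next 19.9), BPS at EB4 for Lama2 (0.02, the others at 0), BPA at RA8 for Lama2 (0.08, next 0.03), BPF at EB6 for Lama5 (15.35, next 13.6) and BPA at EB9 for Lamb2 (13.6, next 12.3).

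The difference between bisphenols and DMSO itself differed between the branches, by the interaction test given in the report, for Lama2 (-3.33), Lama4 (-3.19), Nid1 (-1.98) and Nid2 (-1.10), as neural minus global log2 differences.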

How the results depend on the processing

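Of 68 called comparisons of single members, the fits within the global branch left aside, 44 kept direction and call under every alternative run. Of the 713 values under alternatives, 660 kept both, 53 lost the call and 0 reversed. In the fits within the global branch, added later, 15 more calls kept both in 112 of 114 values, and Lama2 (adjusted p = 0.181) and Lama4 (adjusted p = 0.0642) for BPA lost the call with limma on log2(FPKM + 1). Counts of called members that moved by more than 1.5 times were 1 in place of 4 for EB6 against EB4 with limma on log2(FPKM + 1), 1 in place of 0 for BPS over all stages with no filter and with DESeq2, 0 in place of 1 for the mean bisphenol and for EB4 with limma at either pseudocount, and 0 in place of 2 for BPA in EB6 to EB20 with limma on log2(FPKM + 1). In EB6 to EB20 alone the counts were 2 for BPA, 4 for BPF and 5 for BPS, against 0 for each over all stages. Leaving out 1 compound over all stages, or 1 stage, gave 0 to 1 for BPA, 0 to 2 for BPF, for BPS and for the mean bisphenol, 0 to 2 at EB4, 0 to 1 at EB6, 2 to 5 at EB9, 0 to 6 at NPC10 and 1 to 5 for the branch difference. Leaving out 1 stage put the uncalled Lama1 difference between -0.273 and 0.088 in the global branch and between -0.416 and 0.248 in the neural branch, and the uncalled Lama2 difference between -0.582 and 0.576 in the neural branch. The sign turned for Lama1 without EB6 and without EB20 (0.055), and for both neural differences without NPC10. The cause was not tested. Over all genes, limma on log2(FPKM + 1) called 601 in place of 1561 for EB12 against EB9 and 3791 in place of 6061 for NPC10 against EBs, and for the mean bisphenol limma called 3 and 13 in place of 427 at the larger and the smaller pseudocount. DESeq2 called 13 in place of 26 for BPA, 90 in place of 155 for BPF, 158 in place of 88 at EB4 and 47 in place of 3 in the neural branch, and a filter at 5 CPM gave 96 for BPF and 101 in place of 179 for BPS. Of 80 mean levels, 7 moved by more than 1 SD in CPM. Treatments were compared within stages through the stage term, and replicate numbers give no further pairing, since each group has 1 library. At 2 to 3 reads over 4 libraries, Lama2 in ESCs and EB4 cannot be resolved at this depth.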
